A study of Mus musculus with 3 samples.

Results

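The genes described here set or mark cell cycle arrest and senescence, and they were followed across the cell classes of the mouse dorsal root ganglion (DRG), the cluster of sensory neurons, glia and supporting cells beside the spinal cord. They were chosen by name as 9 of the 32227 genes counted: the cyclin-dependent kinase (CDK) inhibitors Cdkn1a, Cdkn1b, Cdkn1c, Cdkn2a and Cdkn2b, the transcription factor Trp53 and its inhibitor Mdm2, the nuclear lamina gene Lmnb1 and the lysosomal enzyme gene Glb1. All 9 were found in the tables, each in 1 row. RNA was counted in single nuclei of L3-L5 ganglia from C57BL/6 mice, as unique molecular identifiers (UMIs), which stand for single RNA molecules. One adult library (3 months) and a pair of aged libraries (21 months) were available, all labelled male, with no transgene or treatment named. The comparison of these ages asks how the cells of the ganglion differ in old mice, and here whether genes of cell cycle arrest differ with them.

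Cells that stop dividing for good do so mainly through CDK inhibitors, which hold the retinoblastoma proteins in the form that blocks entry into DNA synthesis. The CIP/KIP inhibitors (p21 from Cdkn1a, p27 from Cdkn1b, p57 from Cdkn1c) bind cyclin and CDK complexes broadly and are also used by differentiated cells that have left the cycle, while the INK4 proteins (p16 from Cdkn2a, p15 from Cdkn2b) bind CDK4 and CDK6. Cdkn2a also encodes p19Arf from a second start, a protein that binds Mdm2 and so stabilises p53, the product of Trp53. Loss of lamin B1 (Lmnb1) and activity of the lysosomal beta-galactosidase (Glb1) are widely used marks of senescent cells. Sensory neurons are postmitotic, whereas glia, fibroblasts, endothelial cells and immune cells can divide, so that the same gene can carry a different meaning in each class.

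The adult library held 11518 nuclei with more than 1000 genes, aged replicate 1 held 5130 and aged replicate 2 held 2611, out of 167664164, 95647106 and 69045987 UMIs in all barcodes. The libraries shared 1, 1 and 0 barcodes pairwise. Xist, which is transcribed from the inactive X chromosome of females, stood at 1045, 655 and 666 counts per 1000000 UMIs (CPM) in adult, aged replicate 1 and aged replicate 2, and at least 1 Xist UMI was found in 85.5%, 66.3% and 72.2% of nuclei, which goes against the male label in all 3 libraries. A UMI of a Y-linked gene was found in 14.9%, 13.5% and 11.0% of nuclei. The methods of the study name female aged mice and adults of both sexes. The sexes in each library are thus not settled, and a difference in sex makeup cannot be told apart from age. Malat1, a nuclear RNA, took less of every class in the aged libraries (4.90%, 2.00% and 1.91% of UMIs in Pdgfra fibroblasts), and CPM values of all other genes include that shift. The fitted log2 differences were scaled between libraries (TMM) and adjusted over all genes of a class. The order of libraries in every list of 3 values below is adult, aged replicate 1, aged replicate 2. The aged libraries are described as biological replicates in the study, while the mice behind each are not given in the labels, so the tests measure the spread between these libraries, and the single adult library is assumed to vary like the aged pair.

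Clusters were named from marker genes without use of the 9 genes, which gave 18 classes with at least 20 nuclei in each library: satellite glial cells (SGCs), non-myelinating and myelinating Schwann cells (NMSCs, MSCs), 8 neuron classes, 3 fibroblast classes, endothelial cells, myeloid cells, T lymphocytes and B lymphocytes. All names mean "like" that cell, since they rest on markers alone. Low-Malat1 neurons are the neuron clusters with under 1% of their UMIs from Malat1. Of the 162 pairs of a gene and a class, 122 passed the filter on low counts and 40 did not. By the quasi-likelihood test of edgeR, adjusted after Benjamini and Hochberg, 10 of the 122 pairs (8.20%) differed with age, beside 6.47% of all 223153 gene and class pairs tested. Higher levels in the aged libraries made up 5 of the 10 calls (4.10% of pairs, beside 2.32% of all genes) and lower levels the other 5 (beside 4.14% of all genes). By direction alone, both aged libraries lay above the adult library in 74 of the 122 pairs with 20 UMIs or more (60.7%, beside 45.8% of all genes) and below it in 18 (14.8%, beside 29% of all genes). The smallest p an exact two-sided permutation test of 1 against 2 libraries can give is 0.333. In a test of whether a gene's age difference in 1 class differed from the mean of the other classes, 0 of the 162 pairs passed with edgeR and 4 had an unadjusted p under 0.05, so no age difference described below is shown to be particular to its class. The age calls also depended on the test: 0 of the 10 passed with DESeq2, while 1 pair was called with nuclei thinned to equal depth and 1 in a single fit over all classes.

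Between classes, 60 of the 162 pairs stood apart from the mean of the other classes, 33 of them higher (20.4%, beside 23.5% of all genes) and 27 lower (16.7%, beside 17.4% of all genes). The members fell into a few patterns: the INK4 genes peaked in Pdgfra fibroblasts, Cdkn1c in the other fibroblast classes, Cdkn1a and Cdkn1b in MSCs, and Mdm2, Lmnb1 and Glb1 in immune cells.

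**Figure D1:**
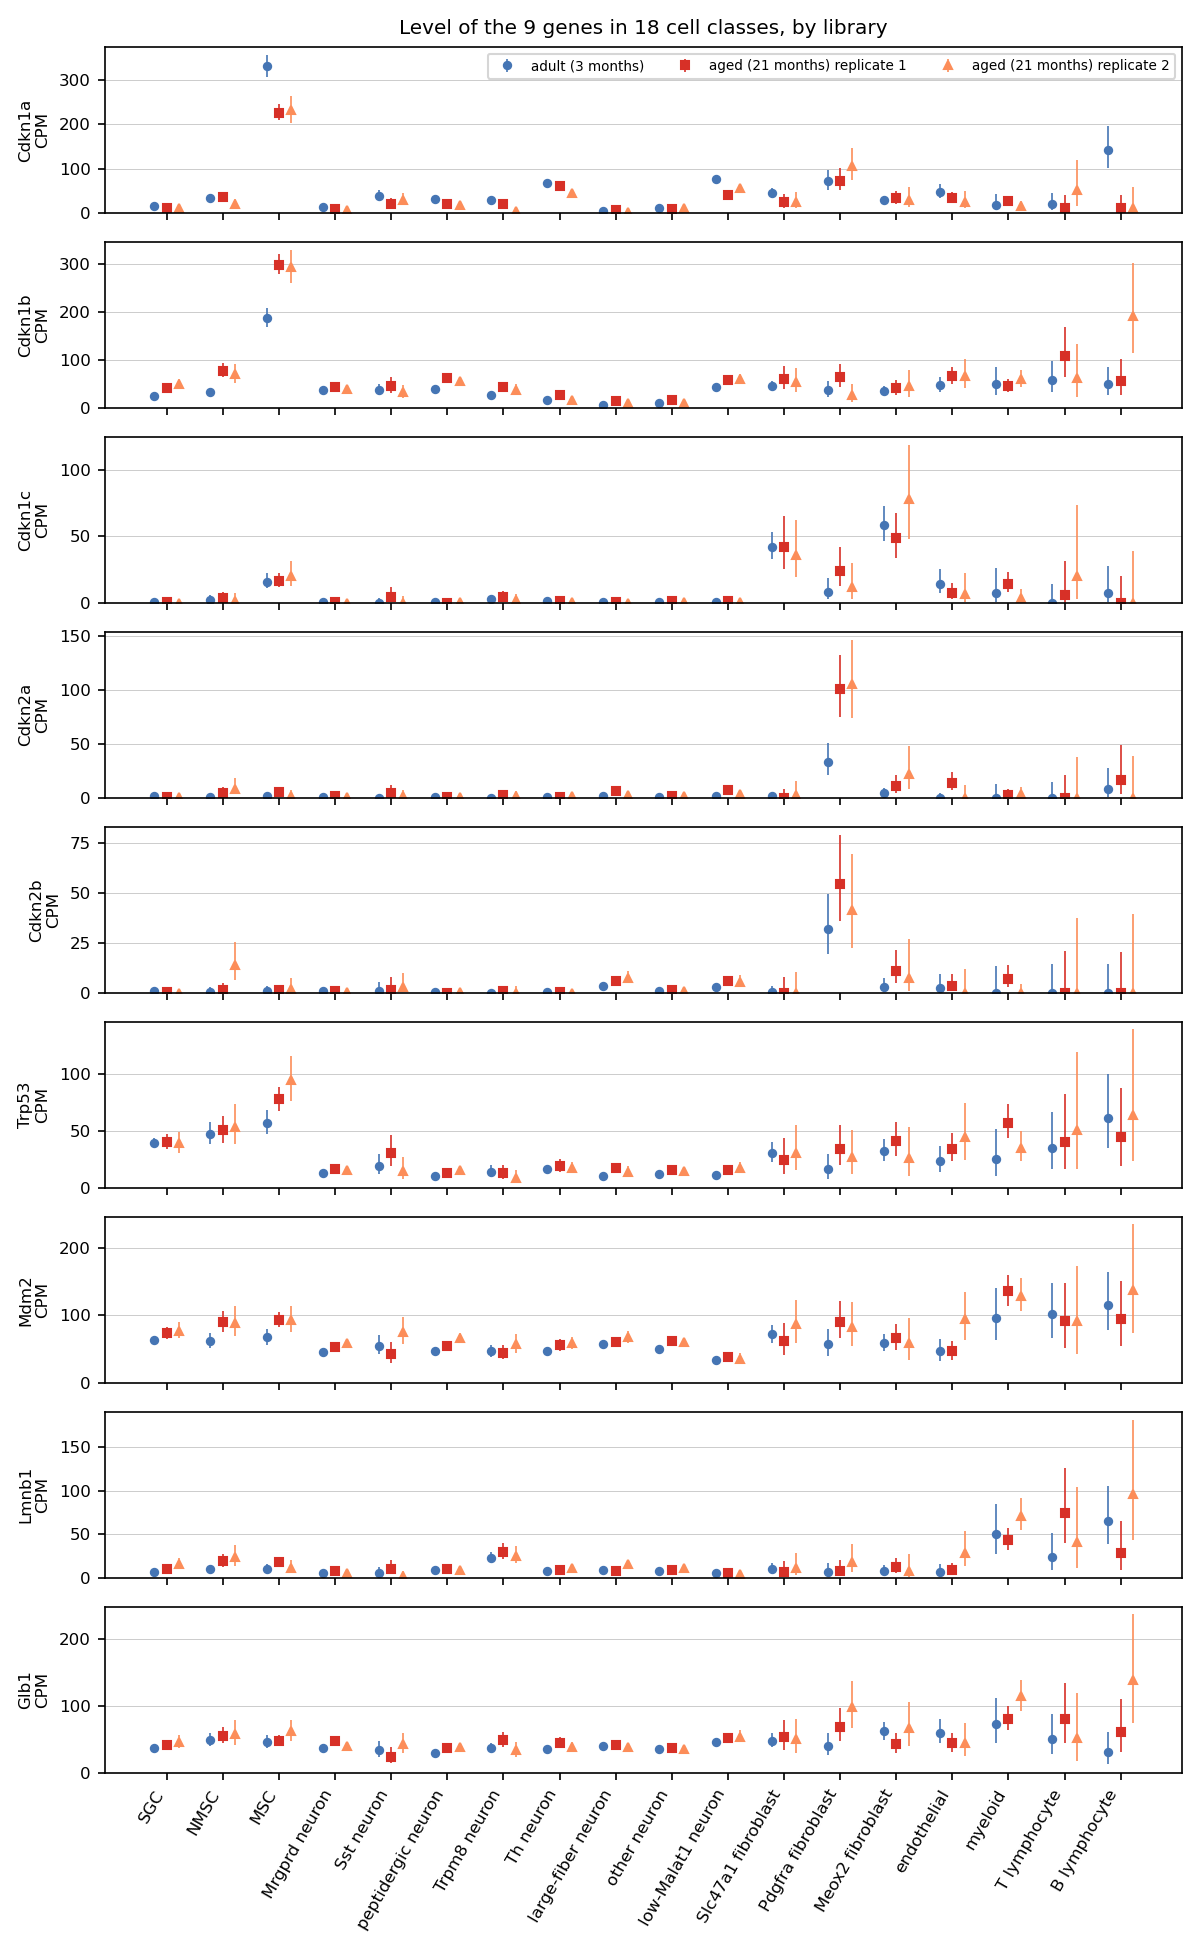
Level of each of the 9 genes in CPM (y axis, own scale for each gene) in 18 cell classes (x axis), with 1 point per library and bars for the 95% Poisson interval of its count. Cdkn2a and Cdkn2b stand highest in Pdgfra fibroblasts, Cdkn1c in Meox2 fibroblasts, and Cdkn1a and Cdkn1b in MSCs, where the aged points lie below the adult point for Cdkn1a and above it for Cdkn1b.

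The INK4 genes lie next to each other on chromosome 4. Cdkn2a (ENSMUSG00000044303) spans chr4:89274471-89294653 on the minus strand and Cdkn2b (ENSMUSG00000073802) spans chr4:89306299-89311039 on the same strand, both in GRCm38. The 250 bases before each of their RefSeq starts (GRCm38.p6, minus strand) are shown because the counts of Cdkn2a pool transcripts from both of its starts, so that p16 and p19Arf transcripts cannot be told apart here. Capitals mark GGGCGG, a GC box bound by Sp1 family factors, searched on both strands.
Cdkn2a upstream start, of the p19Arf transcript, chr4:89294620-89294869: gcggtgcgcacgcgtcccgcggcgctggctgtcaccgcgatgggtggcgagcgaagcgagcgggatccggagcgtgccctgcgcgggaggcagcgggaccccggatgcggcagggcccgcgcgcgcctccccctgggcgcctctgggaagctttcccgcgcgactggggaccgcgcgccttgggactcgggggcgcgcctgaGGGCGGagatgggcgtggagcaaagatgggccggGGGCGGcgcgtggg
Cdkn2a downstream start, of the p16 transcript, chr4:89282193-89282442: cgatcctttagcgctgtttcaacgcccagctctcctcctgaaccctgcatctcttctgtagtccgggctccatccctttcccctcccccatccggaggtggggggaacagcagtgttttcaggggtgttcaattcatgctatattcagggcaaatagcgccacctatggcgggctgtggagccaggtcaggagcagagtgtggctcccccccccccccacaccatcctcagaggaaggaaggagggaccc
Cdkn2b, chr4:89311033-89311282: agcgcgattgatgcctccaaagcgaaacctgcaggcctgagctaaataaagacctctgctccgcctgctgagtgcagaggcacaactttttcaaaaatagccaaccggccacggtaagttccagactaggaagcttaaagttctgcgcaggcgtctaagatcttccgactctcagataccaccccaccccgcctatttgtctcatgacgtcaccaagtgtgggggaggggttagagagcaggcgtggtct
The upstream Cdkn2a window had a GC content of 78.4% with 40 CG pairs, and held GGGCGG at 48 and 14 bases before the start. The downstream Cdkn2a window had 60% GC with 7 CG pairs and the Cdkn2b window 53.6% GC with 12 CG pairs, and neither held the motif. Windows were matched for 7 of the 9 genes. Across 32851 promoters of the same length the median was 52.4% GC and 6 CG pairs, and 32.7% held GGGCGG at least once.

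Cdkn2a was highest in Pdgfra fibroblasts, a class with the markers Pdgfra, Scara5, Lum and Mmp2, at 80.1 CPM ± 40.4 (SD, n = 3 libraries), and the next class, Meox2 fibroblasts, stood at 12.5 CPM ± 9.10. Pdgfra fibroblasts lay above Meox2 fibroblasts in each library, while the classes that followed (B lymphocytes at 8.13 CPM ± 8.35, NMSCs at 4.66 CPM ± 3.65, endothelial cells at 4.58 CPM ± 7.94) did not differ from each other beyond their spread. Against the mean of the other 17 classes, some of them with few or no UMIs, Cdkn2a was higher in Pdgfra fibroblasts (log2 difference 5.16, SE 0.32, adjusted p = 5.6e-18, and 3.73 in marker-gated classes) and in Meox2 fibroblasts (2.07, SE 0.54, adjusted p = 0.0024). The gene had fewer than 20 UMIs over the 3 libraries in 12 of the 18 classes, and none in T lymphocytes.

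In Pdgfra fibroblasts, 21 Cdkn2a UMIs were counted in the adult library (33.6 CPM, 95% Poisson interval 20.8 to 51.4), 50 in aged replicate 1 (101 CPM, 74.7 to 133) and 36 in aged replicate 2 (106 CPM, 74.3 to 147). Both aged libraries lay above the adult library and their intervals did not overlap it. Cdkn2a rose 2.86-fold with age (log2 difference 1.51, SE 0.45, adjusted p = 0.023), in a class in which 4.07% of 9889 genes were called. The adjusted p was lowest, at 0.019, with at least 2000 genes per nucleus, and the call was lost with the DESeq2 test (0.9999), without the filter on low counts (0.057), in marker-gated classes (0.059), after thinning (0.77) and in a single fit over all classes (0.21), with the log2 difference between 1.20 and 2.09 in all of them. The share of nuclei with a Cdkn2a UMI was 8.04% in the adult library (exact 95% Clopper-Pearson interval 4.83 to 12.4, 224 nuclei), 27.0% in aged replicate 1 (19.1 to 36.0, 115 nuclei) and 31.7% in aged replicate 2 (20.3 to 44.96, 60 nuclei). Aged nuclei of this class were also deeper, with a median of 2278, 3092 and 4320 UMIs. Thinned to 1000 UMIs per nucleus, the shares were 4.02% (1.85 to 7.49), 10.4% (5.51 to 17.5) and 8.33% (2.76 to 18.4), again higher in both aged libraries but with overlapping intervals. T lymphocytes, with medians of 2032.5, 2196 and 2505 UMIs, held 0 of 98, 0 of 66 and 0 of 34 nuclei with a Cdkn2a UMI, which allows shares of up to 3.06%, 4.55% and 8.82% when the limit is set at 3 nuclei of the total, a simpler rule than the exact intervals above. Intervals and limits cover counting error only.

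Other cell markers in the Pdgfra class moved with age as well. The 6 Pdgfra fibroblast markers summed to 2368, 1813 and 2325 CPM, the 6 NMSC markers to 2822, 5422 and 4990 CPM, the 5 Meox2 fibroblast markers to 997, 1426 and 1907 CPM and the 8 myeloid markers to 49.6, 68.5 and 91.4 CPM, and none of these markers was at 0. The NMSC list is not particular to NMSCs (13106, 14168 and 13326 CPM). It summed to 16098, 11141 and 11459 CPM in SGCs and to 16845, 11219 and 12263 CPM in Th neurons. Other lists fell in the Pdgfra class: the 6 B lymphocyte markers stood at 110, 8.06 and 5.89 CPM and the 8 neuron markers at 1261, 1045 and 687 CPM. The part of these shifts in the Cdkn2a difference was not tested. NMSCs held Cdkn2a at 0.955, 4.76 and 8.26 CPM, below the Pdgfra class in each library. With all fibroblasts as 1 class, Cdkn2a stood at 7.86, 34.3 and 44.5 CPM and rose 4.64-fold (log2 difference 2.21, SE 0.43, adjusted p = 3.2e-05, with 4.71% of genes called), a call lost with the DESeq2 test (0.132) and after thinning (0.179). The Pdgfra class made up 19.2%, 30.5% and 32.3% of fibroblasts, so this pooled value includes the makeup of the class. Meox2 fibroblasts held Cdkn2a at 4.30, 10.8 and 22.3 CPM, from 20 UMIs in all, with both aged libraries above the adult library. The difference in that class did not pass by edgeR (log2 difference 1.70, SE 1.31, adjusted p = 0.998). The higher aged levels were thus not confined to the Pdgfra class. In Slc47a1 fibroblasts, 2, 0 and 1 nuclei held a Cdkn2a UMI.

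Cdkn2a was also called in low-Malat1 neurons, at 1.38, 6.84 and 3.66 CPM (log2 difference 1.98, SE 0.56, adjusted p = 0.029), and in all neurons as 1 class, at 0.739, 3.25 and 1.45 CPM (log2 difference 1.56, SE 0.40, adjusted p = 0.0023, with 8.84% of genes called). Aged replicate 1 was the highest in both. Without it the log2 differences were 1.34 and 0.86, and in marker-gated classes the first was 1.42 and no longer passed (adjusted p = 0.104). The call in all neurons was lost with the DESeq2 test (adjusted p = 0.265) and, with edgeR, after thinning (0.505). These levels lay below those of free RNA, the barcodes of at most 100 UMIs, in which Cdkn2a stood at 2.16, 9.99 and 7.66 CPM, and in Pdgfra fibroblasts it lay above free RNA in each library. Low-Malat1 nuclei with a Cdkn2a UMI were 1.02%, 3.45% and 1.82% of 886, 1015 and 385, and after thinning 0%, 0.591% and 0%. The share of neurons in the low-Malat1 class was 19.3%, 40.9% and 29.5%. In large-fiber neurons, a class named from Nxph1, Runx3 and Esrrg, Cdkn2a was at 1.40, 6.65 and 2.68 CPM (adjusted p = 0.167). The other markers of that list, Nefh, Ntrk3 and Pvalb, did not pass in this class. All 6 summed to 3059, 2669 and 2593 CPM in it and to 7749, 6424 and 5619 CPM in low-Malat1 neurons, so the name rests on part of the list. In endothelial cells 13 UMIs in 7 nuclei were counted in aged replicate 1 and 0 in each of the other libraries, where the limit of a count of 0 was 3.89 and 9.48 CPM.

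Cdkn2b shared the fibroblast peak. It stood at 42.5 CPM ± 11.2 in Pdgfra fibroblasts and at 7.03 CPM ± 3.99 in Meox2 fibroblasts, and was above the mean of the other classes in the first (log2 difference 5.30, SE 0.45, adjusted p = 4.3e-13). This value depended on the nuclei taken, at 4.49 with at least 2000 genes and 3.27 in marker-gated classes, and the mean includes classes with no Cdkn2b UMI. Over the 18 class means, Tbx18 (r = 0.91), Cdkn2b (r = 0.84) and Sox9 (r = 0.84) were the genes most like Cdkn2a, a description over classes that share their 3 libraries. With age, Cdkn2b in Pdgfra fibroblasts stood at 32.0, 54.4 and 41.3 CPM, with both aged libraries above the adult library inside overlapping counting intervals. The log2 difference was 0.50 (SE 0.52, adjusted p = 0.80). Nuclei with a Cdkn2b UMI were 17 of 224, 23 of 115 and 11 of 60, and thinned to equal depth 3.57%, 1.74% and 3.33%, from 8, 2 and 2 nuclei, too few to order the ages.

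Among neurons, Cdkn2b stood apart in large-fiber neurons, at 3.27, 6.06 and 7.45 CPM, above the mean of the other classes (log2 difference 2.56, SE 0.44, adjusted p = 3.4e-06). Low-Malat1 neurons followed at 2.61, 5.75 and 5.49 CPM (log2 difference 2.19, SE 0.48, adjusted p = 9.8e-05). Free RNA held Cdkn2b at 2.62, 3.61 and 3.60 CPM, below large-fiber neurons in each library and about level with low-Malat1 neurons in the adult one. Nuclei of large-fiber neurons with a Cdkn2b UMI were 4.42%, 7.38% and 13.6%, at medians of 8753, 7018 and 9370 UMIs, against 0 of 98, 66 and 34 of the shallower T lymphocytes. Thinned to 1000 UMIs the shares were 0.402%, 0.308% and 0%, from 3, 1 and 0 nuclei, too few to compare with so small a number of T lymphocytes. The age difference in this class was 0.79 on the log2 scale (SE 0.41, adjusted p = 0.29). Cdkn2b had fewer than 20 UMIs in 14 of the 18 classes and none in T or B lymphocytes.

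**Figure D2:**
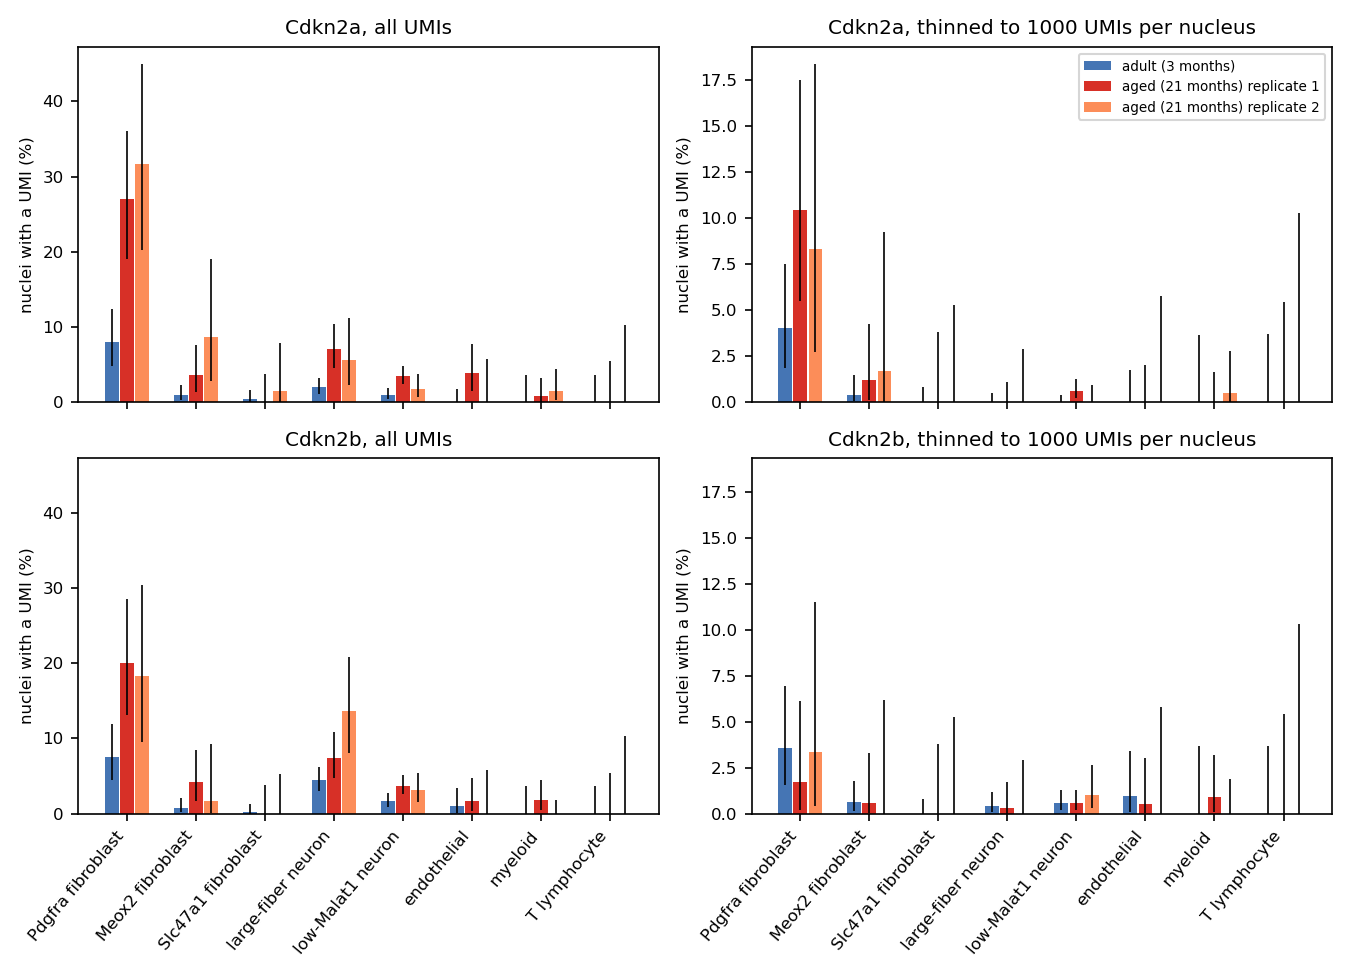
Share of nuclei with at least 1 UMI of Cdkn2a (top) or Cdkn2b (bottom), in percent, in 8 classes and 3 libraries, with all UMIs (left) and after thinning each nucleus to 1000 UMIs (right, smaller y scale). Bars carry exact 95% binomial intervals; in Pdgfra fibroblasts the Cdkn2a share was 8.04%, 27.0% and 31.7% and stayed higher in both aged libraries at equal depth (4.02%, 10.4% and 8.33%), with overlapping intervals.

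Cdkn1c, an imprinted CIP/KIP gene (ENSMUSG00000037664, chr7:143458339-143461050, minus strand, sharing exonic positions with Gm44732 on the plus strand), was highest in fibroblasts among the 18 classes. It stood at 61.8 CPM ± 14.9 in Meox2 fibroblasts and 40.0 CPM ± 3.20 in Slc47a1 fibroblasts, followed by MSCs at 17.7 CPM ± 2.46 and Pdgfra fibroblasts at 14.7 CPM ± 8.46. Mural nuclei, too few to form a class, held 39.8, 52.7 and 0 CPM. Against the mean of the other classes this was 20.5-fold in Meox2 fibroblasts (log2 difference 4.35, SE 0.30, adjusted p = 3.6e-17) and 13.4-fold in Slc47a1 fibroblasts (log2 difference 3.75, SE 0.32, adjusted p = 7.4e-14). Slc47a1 fibroblasts, high in Cdkn1c, held 3 Cdkn2a UMIs and 1 Cdkn2b UMI over the 3 libraries, whereas Meox2 fibroblasts came first for Cdkn1c and second for both INK4 genes. Nuclei with a Cdkn1c UMI were 11.6%, 13.8% and 25.9% of Meox2 fibroblasts (thinned, 3.86%, 1.20% and 5.17%, at medians of 2382.5, 2692 and 2910 UMIs), against 4 of 2915, 1 of 417 and 0 of 219 SGCs. Neurons were low: 6 neuron classes were among the 7 classes called lower for this gene, with at most 1.64 CPM in any library. With age 0 classes passed by edgeR, 0 also at an unadjusted p under 0.05: Meox2 fibroblasts held 58.8, 48.7 and 77.9 CPM (log2 difference -0.04, SE 0.43) and Slc47a1 fibroblasts 42.0, 41.7 and 36.3 CPM (-0.18, SE 0.39). The genes with the most similar class means were Igfbp6 (r = 0.95), Lbp and Gm49417 (r = 0.91 each).

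Cdkn1a (ENSMUSG00000023067, chr17:29090976-29100727, plus strand, sharing exonic positions with AC167363.2 on the minus strand) is a classic target of p53. The window before its first RefSeq start is shown with p53 half-sites, the decamers that p53 binds in pairs, in capitals.
Cdkn1a, chr17:29090729-29090978, plus strand: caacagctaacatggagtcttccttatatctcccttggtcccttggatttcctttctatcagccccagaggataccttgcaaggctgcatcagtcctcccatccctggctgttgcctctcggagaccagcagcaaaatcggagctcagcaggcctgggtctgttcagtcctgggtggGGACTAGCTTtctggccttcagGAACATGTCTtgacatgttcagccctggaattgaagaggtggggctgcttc
The half-sites lay at 73 and 51 bases before the start. The window before a second RefSeq start of Cdkn1a, not shown, held no half-site and GGGCGG at 104 and 46 bases. One or more was found in 7.13% of all promoters and 2 or more in 0.259%, and Mdm2 and Trp53 held 1 each, at 186 and 75 bases.

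Cdkn1a was highest in MSCs at 263 CPM ± 58.4, 10.6-fold above the mean of the other classes (log2 difference 3.40, adjusted p = 2.2e-25). Pdgfra fibroblasts at 83.5 CPM ± 19.5, Th neurons at 57.1 CPM ± 11.6 and low-Malat1 neurons at 57.0 CPM ± 18.3 came next. Pdgfra fibroblasts lay above Th neurons in each library, and Th and low-Malat1 neurons did not differ beyond their spread. Neurons ranged from Th neurons, the low-threshold mechanoreceptors marked by Th and Tafa4 (66.4, 60.9 and 44.2 CPM), to large-fiber neurons (5.13, 6.36 and 2.68 CPM), the lowest of all classes. Both were called against the mean of the other classes, Th neurons 2.64-fold higher (adjusted p = 1.9e-09) and large-fiber neurons 5.52-fold lower (log2 difference -2.47, SE 0.26, adjusted p = 1.4e-11). Free RNA held Cdkn1a at 53.1, 48.3 and 53.2 CPM, so that only MSCs and Pdgfra fibroblasts lay above it in each of the 3 libraries.

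With age, Cdkn1a was lower in both aged libraries in 12 of the 18 classes (beside 29% of pairs over all genes). It was higher in both in 2 (beside 45.8%), among them Pdgfra fibroblasts (72.0, 72.5 and 106 CPM). Cdkn1a was called lower in 5 classes by edgeR's test and higher in 0 (0 also at an unadjusted p under 0.05). In MSCs it stood at 330, 226 and 232 CPM (log2 difference -0.64, SE 0.16, adjusted p = 0.0017), with 36796, 14165 and 13271 CPM of the 7 MSC markers. In low-Malat1 neurons, whose makeup differed between the libraries as given below, it stood at 76.0, 39.4 and 55.7 CPM (-0.79, SE 0.17, adjusted p = 0.0053). In peptidergic neurons, the nociceptors marked by Tac1 and Calca, it stood at 31.3, 19.6 and 16.9 CPM (-0.93, SE 0.24, adjusted p = 0.0075), and in Mrgprd neurons, the non-peptidergic nociceptors, at 13.2, 8.38 and 6.80 CPM (-0.90, SE 0.29, adjusted p = 0.016). The adult library was the highest in each of these classes and the groups did not overlap. As the classes were chosen by these calls, this order adds no support to them. With at least 2000 genes per nucleus the MSC call was lost (-0.23, adjusted p = 0.65). All neurons as 1 class held 26.0, 19.1 and 17.4 CPM (-0.63, SE 0.22, adjusted p = 0.049), a call lost with DESeq2 size factors (0.052) or test (0.26), without the filter on low counts (0.077), in marker-gated classes (0.12) and after thinning (0.64).

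Low-Malat1 neurons pooled 5 clusters that differed in Cdkn1a. The cluster with the markers of Th neurons held 281, 265 and 288 CPM, and gave 119 of 886, 53 of 1015 and 40 of 385 nuclei of the class. The cluster with Nefh, Ntrk3 and Pvalb held 11.8, 10.8 and 9.08 CPM, and the cluster with Mrgprd held 62.7, 57.8 and 89.9 CPM. Of the clusters without subtype markers, the larger held 43.8, 22.2 and 24.6 CPM and the smaller 86.0, 81.7 and 34.9 CPM. The aged libraries were split around the adult one in the Th and Mrgprd clusters and lay below it in the other 3, and the level of the whole class includes the change in its makeup.

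In B lymphocytes the adult library held 37 Cdkn1a UMIs (142 CPM) in 21 of 108 nuclei, and the aged libraries held 2 and 1 UMIs (11.1 and 10.6 CPM) in 56 and 28 nuclei. The log2 difference was -3.66 (SE 0.91, adjusted p = 0.0075), and in marker-gated classes -2.85 (adjusted p = 0.124). MSC markers moved with it: their sum was 6461, 517 and 2127 CPM in this class, where 3 of the 7 also passed as markers of the cluster. In neurons the same 7 markers summed to 241, 137 and 61.9 CPM in Mrgprd neurons, 276, 169 and 132 CPM in peptidergic neurons and 497, 282 and 251 CPM in low-Malat1 neurons, and in free RNA to 2571, 1676 and 1048 CPM. Among nuclei with no UMI of these markers, Cdkn1a stood at 38.1, 31.8 and 59.0 CPM in low-Malat1 neurons, with 1 aged library below the adult one and 1 above it (log2 difference 0.04, adjusted p = 0.98). In Mrgprd neurons it stayed lower in both aged libraries, at 18.2, 5.37 and 6.10 CPM from 21, 7 and 12 UMIs (log2 difference -1.72, adjusted p = 0.11). Peptidergic neurons kept 11, 8 and 0 UMIs and B lymphocytes 1, 1 and 0, too few for the test. This choice of nuclei was made after the data were seen, left out 50% to 82.9% of each class and took the shallower nuclei: the median went from 6585, 11659.5 and 11898.5 UMIs to 2781, 4807.5 and 4323 in Mrgprd neurons, and from 3802, 3686 and 3661 UMIs to 2542, 2845 and 2584 in low-Malat1 neurons.

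**Figure D3:**
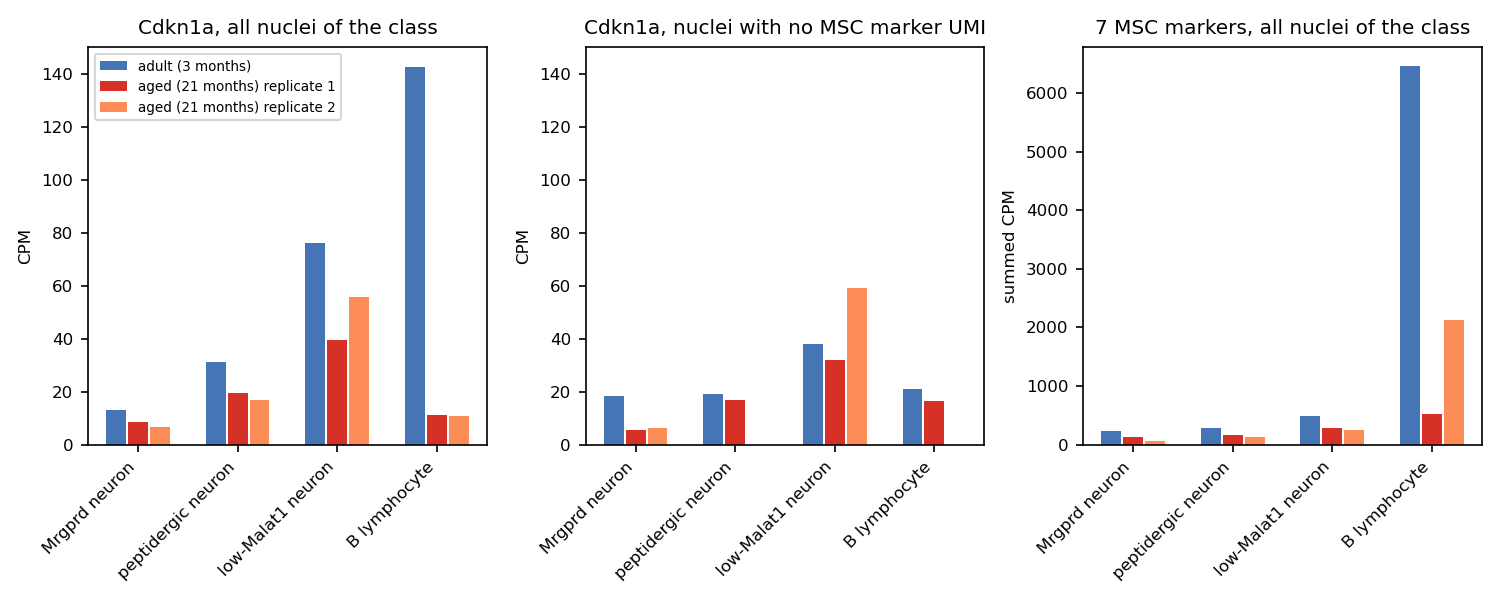
Cdkn1a in CPM in all nuclei of 4 classes (left), in nuclei with no UMI of the 7 MSC markers (middle), and the summed CPM of these markers in all nuclei (right), each with 1 bar per library. The adult bar is the highest on the left and right in all 4 classes, and in low-Malat1 neurons aged replicate 2 is the highest in the middle (38.1, 31.8 and 59.0 CPM).

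Cdkn1b (ENSMUSG00000003031, chr6:134920401-134925513, plus strand), the inhibitor of many quiescent cells, went the other way. Both aged libraries lay above the adult library in 15 of 18 classes (beside 45.8% of pairs over all genes) and below it in 0 (beside 29%). Cdkn1b rose in 3 classes, all of them glial. In NMSCs it stood at 33.4, 77.6 and 70.2 CPM, with both aged libraries above the adult library, and rose 1.96-fold (log2 difference 0.97, SE 0.32, adjusted p = 0.027). This call held with DESeq2 size factors and was lost without the filter on low counts (adjusted p = 0.296), with at least 2000 genes per nucleus (0.274), in marker-gated classes (0.131), after thinning (0.485), with the DESeq2 test (0.71) and in a single fit over all classes (0.076). SGCs held 25.0, 41.2 and 49.6 CPM (0.66, SE 0.20, adjusted p = 0.012) and MSCs 187, 298 and 294 CPM (0.55, SE 0.17, adjusted p = 0.018), and the SGC call was also lost with at least 2000 genes (0.131) and in marker-gated classes (0.166). Nuclei of NMSCs with a Cdkn1b UMI were 7.44%, 25.4% and 20.5%, at medians of 2503.5, 4036 and 4000 UMIs, and thinned to equal depth 3.13%, 7.12% and 3.42%. No neuron class passed: large-fiber neurons were nearest, at 6.53, 15.1 and 10.7 CPM (0.78, SE 0.30, adjusted p = 0.158). The NMSC class also held 7 fibroblast markers at 319, 1020 and 933 CPM, whose part in the difference was not tested. Free RNA held 43.0, 53.4 and 52.6 CPM.

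By class, Cdkn1b was highest in MSCs at 260 CPM ± 62.8 (log2 difference 2.70 from the mean of the others, SE 0.11, adjusted p = 9.4e-27), and B and T lymphocytes at 99.0 CPM ± 80.1 and 76.0 CPM ± 27.8 followed without a difference beyond their spread. Large-fiber neurons, at 10.8 CPM ± 4.27, were lowest, 3.94-fold below the mean of the others (log2 difference -1.98, SE 0.16, adjusted p = 9.4e-15). The remaining neurons that no subtype list named were second lowest at 12.3 CPM ± 3.58 (log2 difference -1.74, SE 0.15, adjusted p = 8.0e-14). Peptidergic neurons lay above the mean, at 38.9, 62.7 and 56.4 CPM (log2 difference 0.44, adjusted p = 0.0026). Cdkn1a and Cdkn1b therefore shared both their highest and their lowest class, and their class means gave r = 0.73 over 18 classes.

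Trp53 (ENSMUSG00000059552, chr11:69580359-69591873, plus strand) had its lowest mean levels in the 8 neuron classes, below all glial, fibroblast, endothelial and immune classes. It was above the mean of the other classes in SGCs, NMSCs and MSCs, with the highest level in MSCs at 76.1 CPM ± 18.8 (log2 difference 1.61, SE 0.13, adjusted p = 6.1e-15), and NMSCs held 47.3, 50.3 and 53.7 CPM (1.01, SE 0.15, adjusted p = 2.1e-07). It was below the mean in 6 of the 8 neuron classes, from -0.48 in Mrgprd neurons to -0.98 in Trpm8 neurons, which stood lowest at 11.8 CPM ± 2.75. Myeloid cells and B lymphocytes were also above the mean, at 39.0 CPM ± 16.3 and 56.6 CPM ± 10.6. With age 0 classes passed by edgeR and 1 had an unadjusted p under 0.05. Both aged libraries lay above the adult library in 12 of 18 classes, beside 45.8% of pairs with 20 UMIs or more over all genes. The median log2 difference over the 17 classes tested was 0.08.

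Mdm2 (ENSMUSG00000020184, chr10:117688875-117710758, minus strand), the ubiquitin ligase that holds p53 low and is itself a p53 target, was called higher in 3 classes and lower in 3. Myeloid cells at 121 CPM ± 20.8, B lymphocytes at 116 CPM ± 21.9 and T lymphocytes at 94.8 CPM ± 5.93 were the highest and did not differ beyond their spread. Myeloid cells were 1.67-fold above the mean of the others (log2 difference 0.74, SE 0.13, adjusted p = 2.3e-06) and low-Malat1 neurons 1.80-fold below it, at 33.1, 38.2 and 35.9 CPM (-0.85, SE 0.12, adjusted p = 2.3e-08). With age 0 classes passed by edgeR, 0 also at an unadjusted p under 0.05, and myeloid cells held 96.9, 136 and 129 CPM (0.51, SE 0.28, adjusted p = 0.352). Trp53 and Mdm2 had r = 0.78 over the class means.

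Lmnb1 (ENSMUSG00000024590, chr18:56707813-56753424, plus strand), whose loss marks senescence in cultured cells, fell in 0 of the 14 classes tested for age by edgeR, 0 also at an unadjusted p under 0.05. Both aged libraries lay above the adult library in 10 of 18 classes, beside 45.8% of pairs with 20 UMIs or more over all genes. They lay below it in 1, low-Malat1 neurons, at 5.37, 4.93 and 4.03 CPM (beside 29%). For Lmnb1, 2 of the 18 classes had under 20 UMIs. In NMSCs Lmnb1 stood at 9.55, 19.0 and 23.4 CPM (log2 difference 0.93, SE 0.49, adjusted p = 0.276), and in SGCs at 6.29, 9.58 and 16.2 CPM (0.78, SE 0.37, adjusted p = 0.145). Pdgfra fibroblasts, where Cdkn2a rose, held 14 Lmnb1 UMIs in all, at 6.40, 8.06 and 17.7 CPM, too few for the test. Lmnb1 was highest in immune cells, with B lymphocytes at 63.0 CPM ± 34.0, myeloid cells at 54.6 CPM ± 14.6 (log2 difference against the other classes 1.97, SE 0.23, adjusted p = 3.8e-10) and T lymphocytes at 46.1 CPM ± 25.6, which did not differ beyond their spread.

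Trpm8 neurons, the cold-sensing neurons, stood out among neurons for Lmnb1, at 22.8, 29.7 and 25.1 CPM, 2.31-fold above the mean of the other classes (log2 difference 1.21, SE 0.22, adjusted p = 9.8e-06), and Mrgprd, Sst and low-Malat1 neurons were below that mean. The small cluster of cycling and erythroid nuclei (19, 28 and 44), outside the 18 classes, held Lmnb1 at 53.3, 323 and 208 CPM, with a UMI in 15.8%, 46.4% and 43.2% of nuclei. The same cluster held 0 Cdkn2a UMIs and Cdkn1a UMIs of 0, 0 and 2.

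Glb1 (ENSMUSG00000045594, chr9:114401076-114474898, plus strand, sharing exonic positions with Tmppe on the same strand) had 2 class calls. Myeloid cells were highest at 88.5 CPM ± 22.4 (1.72-fold above the mean of the others, log2 difference 0.78, SE 0.16, adjusted p = 3.9e-05), and peptidergic neurons lay 1.26-fold below the mean (adjusted p = 0.034). With age 0 classes passed by edgeR and 1 had an unadjusted p under 0.05. In Pdgfra fibroblasts Glb1 stood at 40.0, 68.5 and 97.3 CPM, with both aged libraries above the adult library (log2 difference 0.93, SE 0.45, adjusted p = 0.337), and in the remaining neurons at 35.8, 35.9 and 35.8 CPM. Myeloid cells held 71.7, 79.7 and 114 CPM (0.48, SE 0.38, adjusted p = 0.526), and nuclei with a Glb1 UMI were 16.2%, 25.3% and 31.1%, or 9.09%, 9.78% and 10.7% at equal depth.

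Different clusters made up the myeloid class at each age. A cluster led by F13a1 and Ccr2 gave 91, 71 and 77 nuclei, one led by Ms4a7 and Trem2 gave 8, 106 and 72, and one led by Mmp12 and Gpnmb gave 0, 48 and 47. Within the F13a1 cluster Glb1 stood at 62.5, 59.7 and 60.2 CPM, and the Mmp12 cluster held 85.0 and 152 CPM in the aged libraries. The Ms4a7 cluster held Glb1 at 177 (4 UMIs in 8 nuclei), 87.0 and 130 CPM. Lmnb1 within the F13a1 cluster stood at 54.6, 91.5 and 117 CPM, and in the Ms4a7 cluster at 16.9 and 24.4 CPM in the aged libraries. The level of the whole class therefore includes a change in its makeup.

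The other genes of these pathways were described by lists, over the 18 classes together. Of 325 tested pairs of a p53 target and a class, 4 were higher and 13 lower with age (5.23%, beside the 6.47% of all genes, with a median log2 difference of -0.02). Ddit4, an inhibitor of mTOR signalling induced by p53 and by stress, made up 7 of the 13 lower calls, among them Pdgfra fibroblasts at 86.4, 20.1 and 35.4 CPM (-1.78, SE 0.47, adjusted p = 0.0061) and Mrgprd neurons at 16.4, 10.3 and 8.74 CPM (-0.88, SE 0.26, adjusted p = 0.0079). Ddit4 in free RNA stood at 58.9, 36.6 and 38.0 CPM, lower in both aged libraries as well. Gadd45a, a DNA damage response gene, rose in low-Malat1 neurons, at 16.1, 44.9 and 36.6 CPM (1.32, SE 0.20, adjusted p = 0.00029), and free RNA held it at 16.5, 37.0 and 38.2 CPM. Of 202 pairs of p53 regulators, 3 were higher and 0 lower (1.49%, median 0.13): Mdm4, the partner of Mdm2, and the acetyltransferase Ep300 in Mrgprd neurons, and the deubiquitinase Usp7 in low-Malat1 neurons, at 171, 256 and 270 CPM (0.57, SE 0.11, adjusted p = 0.0024). Usp7 in free RNA stood at 130, 173 and 179 CPM, higher in both aged libraries too.

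Of 222 pairs of cyclins, CDKs and RB family genes, 8 were higher and 6 lower (6.31%, near the 6.47% of all genes, median 0.02). In NMSCs the D-type cyclins Ccnd1, at 37.2, 120 and 97.7 CPM (1.38, SE 0.29, adjusted p = 7.3e-05), and Ccnd3 rose, and their kinase gene Cdk6 fell, at 236, 136 and 180 CPM (-0.78, SE 0.21, adjusted p = 0.0047). By the same edgeR fits Ccnd1 also rose in MSCs (1.90, SE 0.30, adjusted p = 3.2e-08) and SGCs (0.90, SE 0.18, adjusted p = 1.1e-05). Cdk6 also fell in MSCs, SGCs and low-Malat1 neurons, and stood at 60.2, 32.7 and 30.2 CPM in free RNA. Of 189 pairs of nuclear lamina and chromatin genes, 5 were higher and 4 lower (4.76%, below the 6.47% of all genes, median 0.09). Again in NMSCs, Hmga2, a chromatin protein of growing and senescent cells, stood at 4.30, 52.4 and 68.8 CPM (3.58, SE 0.48, adjusted p = 8.0e-12), and Lmna at 88.3, 173 and 167 CPM (0.76, SE 0.24, adjusted p = 0.019). Lmna was also called higher by edgeR in MSCs (0.66, SE 0.19, adjusted p = 0.0089). The fibroblast markers given above for NMSCs moved with these genes as well, and so did the 5 markers of cycling cells, at 17.2, 81.6 and 74.3 CPM. Their part was not tested.

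Of 170 pairs of secreted factors linked to senescence, 14 were higher and 7 lower (12.4%, median 0.15), beside 6.47% of all genes (2.32% higher and 4.14% lower). In Pdgfra fibroblasts the chemokine gene Ccl2 stood at 41.6, 64.5 and 197 CPM, higher in both aged libraries but far apart between them (1.49, SE 0.42, adjusted p = 0.014), and Igfbp5 fell, at 150, 38.3 and 26.5 CPM (-2.27, SE 0.40, adjusted p = 3.2e-06). Igfbp7 rose in NMSCs, at 20.05, 145 and 121 CPM (2.56, SE 0.31, adjusted p = 7.6e-14), with the fibroblast and cycling markers of that class, whose part was not tested. Mmp12, a macrophage elastase, stood at 7.17, 108 and 123 CPM in myeloid cells (4.03, SE 0.54, adjusted p = 0.0071), where it leads the cluster present in the aged libraries and absent from the adult one.

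Of 215 pairs of lysosomal partners of Glb1, 24 were higher and 5 lower (13.5%, median 0.15). Of all genes 6.47% were called, 2.32% higher and 4.14% lower. In myeloid cells the cathepsin genes Ctsd, at 122, 741 and 547 CPM (2.46, SE 0.28, adjusted p = 0.0038), and Ctsb, at 276, 820 and 722 CPM (1.54, SE 0.19, adjusted p = 0.0046), were higher in the aged libraries, in a class made up of different clusters at each age as given for Glb1, and the part of that makeup was not tested. Free RNA held Ctsd at 373, 497 and 507 CPM and Ctsb at 526, 757 and 845 CPM, higher in both aged libraries too. Ctsb in myeloid cells lay above free RNA in aged replicate 1 only. Glb1 itself did not pass in myeloid cells or any other class.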

How the data were processed

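Nuclei of L3-L5 dorsal root ganglia were profiled by single-nucleus RNA-seq, and the deposited matrices hold raw UMI counts per gene and barcode, made by the authors with Pipseeker and, per the submitters' processing notes, the build mm10. The deposited barcode matrices are unfiltered, and barcodes with more than 1000 genes were kept. The annotation and the use of strand in counting are not given in the sources used here. Gene positions were taken from GENCODE and promoters from RefSeq.

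Nuclei were clustered with Seurat 5.3.0 (SCTransform, integration of the ages, 30 components, resolution 0.8 and 0.3 within immune clusters) on 2975 features, after 25 features that were members or listed genes had been removed. Clusters were named where 3 or more markers passed, by a rule revised after the clusters were seen; mixed and unnamed clusters were left out, which kept 10674, 4730 and 2425 nuclei. No doublet caller was run. UMIs were summed per class and library and tested with edgeR 4.0.16 (TMM, filterByExpr, quasi-likelihood test, adjusted p under 0.05 by Benjamini-Hochberg over all genes of the class), with library as a block for the comparison between classes. The age fit has 1 residual degree of freedom. SE was taken as the log2 difference over the square root of F. Code was tested on simulated data. Aged samples follow the labels (21 months), while the series' design text gives another age. The members and lists were chosen with earlier results of these data known. Every member is accounted for in each class, full statistics go to at most 10 pairs per comparison in order of adjusted p, and from each list and class at most 3 called genes were eligible. Alternatives were DESeq2 1.42.0 (size factors, test), no filter, 2000 genes per nucleus, thinning to 1000 UMIs, classes gated by markers, 1 fit over all classes and leaving out libraries. Some listed genes are not reported here. Further member values are quoted beyond the 10 pairs, chosen after they were seen.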

Additional observations from a re-analysis of the deposited data

Results flagged for a closer look

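Free RNA, the barcodes of at most 100 UMIs that entered no test between the ages, held 2 of the 9 genes at a higher level in both aged libraries than in the adult library beyond counting error. The share of all genes that differ in this way was not counted, so this is not shown to be particular to these genes. Marker sums in free RNA also moved, up for large-fiber neurons (2479, 4624 and 3445 CPM) and down for MSCs (2571, 1676 and 1048 CPM). Cdkn1b stood at 52.99 CPM on average in the aged libraries (53.4 and 52.6, from 695 and 803 UMIs) and 43.0 CPM in the adult library (739 UMIs). Cdkn2a stood at 8.82 CPM on average in the aged libraries (9.99 and 7.66, from 130 and 117 UMIs) and 2.16 CPM in the adult library (37 UMIs).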

How the results depend on the processing

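Of the 10 age calls among the members, 0 passed with the DESeq2 test (6 at an unadjusted p under 0.05, 33 of 122 pairs without an adjusted p, against 21 at an unadjusted p under 0.05 with edgeR), 1 with nuclei thinned to 1000 UMIs (Cdkn1a in MSCs, 48 pairs tested) and 1 in a single fit over all classes (Cdkn1a in B lymphocytes, 162 pairs). The other alternatives gave 7 to 10 calls in all, which need not be the same pairs. Apart from the DESeq2 test, thinning and the single fit, the alternatives that ended single calls stand beside them. The direction reversed once: Cdkn1a in low-Malat1 neurons was at 0.0376 in nuclei with no MSC marker UMI, and the cause was not tested. Without either aged library no test is possible, and the 13 age differences, pooled classes included, kept their sign, with Cdkn2a in all neurons between 0.86 and 1.98 and Cdkn1a in low-Malat1 neurons between -1.001 and -0.498. The 60 calls between classes became 22 after thinning (108 pairs tested), 58 to 79 under the others and 46 to 53 when a library was left out. The 93 calls among the other pathway genes became 19 with the DESeq2 test and 21 after thinning, and 62 to 98 under the others. No paired analysis was possible because the adult group has 1 library and shares 1 replicate number with the aged group. Depth limits the INK4 genes most, with under 20 UMIs in 12 and 14 of the 18 classes.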

Other observations

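Mural nuclei (57, 18 and 3), too few for a comparison, held 6 Cdkn2b UMIs, all in the adult library (39.8 CPM), and 1 Cdkn2a UMI. Their Cdkn1c UMIs numbered 10, at 39.8, 52.7 and 0 CPM. The genes whose class means were most like the remaining members were Pmp22 for Cdkn1a (r = 0.82), Cers2 for Cdkn1b (r = 0.90), Ripor3 for Cdkn2b (r = 0.88), Tsc22d4 for Trp53 (r = 0.95), Mtmr3 for Mdm2 (r = 0.96), Cdc42se2 for Lmnb1 (r = 0.92) and Ctsz for Glb1 (r = 0.94), over 18 classes of the same 3 libraries.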
